A study of Mus musculus with 15 samples.

Results

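Bone morphogenetic protein (BMP) signalling and the Id genes were followed through 10 genes: the ligands Bmp2, Bmp4 and Bmp7, the secreted antagonist Grem1, the receptor Bmpr1a, the inhibitory SMADs Smad6 and Smad7, and the targets Id1, Id2 and Id3. They were found by the gene name printed for each non-control probe in the scanner files, which gave 14 probes for 10 of the 27753 genes and unnamed features on the array. All 10 had a probe well above background in at least 1 group, so all 10 entered each test. Levels below are log2 values of the processed intensity minus the 75th percentile of the same array, so that 0 is the level of a probe brighter than 75% of the array. A gene's level was compared only between samples, not with that of another gene. Probes of 1 gene were ranked to pick the brightest, and marker levels were summed over genes, so bright markers weigh most in those sums.

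All 15 single-colour arrays hold RNA of male Apc+/Min-FCCC mice. In this strain a mutation in 1 allele of Apc, a brake on Wnt signalling, leads to colon adenomas. The mice were sorted as tumor-bearing or tumor-free by colonoscopy at 6 to 8 weeks of age and then fed for 7 days. Laser-microdissected adenoma cells were collected from mice without drug (untreated, 3 arrays) and under sulindac at 300 ppm, an inhibitor of cyclooxygenases, combined with atorvastatin at 100 ppm, a cholesterol-lowering statin (treated, 4 arrays). Laser-microdissected normal epithelium was taken from tumor-free mice and from tumor-bearing mice (4 arrays each), and both groups are labelled as given atorvastatin at 100 ppm. The design text describes tumor-bearing mice only on plain chow or on both drugs, and the labels were followed here. Every mouse carried the Apc mutation, so no group was wild type. No group of untreated epithelium was analysed here: tissue and atorvastatin cannot be told apart between untreated adenomas and epithelium, nor can tissue and sulindac between treated adenomas and epithelium.

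Arrays of a group that differed by less than the spot noise were counted as 1 sample (6 pairs, SD of the log2 difference 0.086 to 0.17 against a noise of 0.19 to 0.22). This left 2 untreated adenoma samples (1 and 3), 2 treated adenoma samples (1 and 2), 3 samples of tumor-free epithelium (1, 2 and 3) and 3 of tumor-bearing epithelium (1, 2 and 4), each called by its lowest array number. Nothing in the labels says that the samples of a group came from separate mice, so the p-values measure the spread between these samples. Across groups, array 2 from tumor-free mice and array 2 from tumor-bearing mice were near-identical too (SD 0.18, spot noise 0.18, r = 0.988), and results that change without this pair are marked as such. The share of probes well above background ran from 56.1% to 75.1% over the arrays, whose number limits the precision. All 10 epithelial markers, Epcam, Cdh1, Krt8 and Krt18 among them, were well above background on every array. So were at least 7 of 8 smooth muscle, 7 of 8 endothelial and 7 of 8 immune markers and all 10 fibroblast markers in every group, so the dissected cells were not purely epithelial. Because each sample was a bulk of cells, fewer cells of a type and less RNA per cell cannot be told apart.

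BMPs are secreted ligands that join type I receptors such as Bmpr1a with type II receptors. The receptors phosphorylate SMAD1, SMAD5 and SMAD8, which enter the nucleus with SMAD4 and switch on genes that include Id1, Id2, Id3, Smad6 and Smad7. Id proteins bind the basic helix-loop-helix E proteins and keep them off DNA, while Smad6 and Smad7 feed back on the receptors. In the colon, BMP signalling is known to be strongest towards the surface of the crypt, where cells differentiate, and antagonists such as gremlin from cells around the crypt base hold it down near the stem cells.

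The probes that lie in protein-coding sequence show which part of a transcript was read, and they are the basis of the levels given for Id2 (the second probe), Id3, Bmp4 and Smad6. Positions are given on mm7, the mouse build named in the scanner files. The Id2 probe covers the end of the reading frame across a splice junction (chr12:22931820-22932167, minus strand), and its 3 capitals are the stop codon. The Id3 probe also spans a junction (chr4:135522597-135522771, plus strand). The Bmp4 probe (chr14:41704207-41704266, minus strand) and the Smad6 probe (chr9:63982002-63982061, minus strand) each lie in a single stretch of the genome.
Id2 probe: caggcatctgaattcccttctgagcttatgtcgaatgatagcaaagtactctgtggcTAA
Id3 probe: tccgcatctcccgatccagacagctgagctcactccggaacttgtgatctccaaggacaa
Bmp4 probe: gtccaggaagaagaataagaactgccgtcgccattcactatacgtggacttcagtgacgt
Smad6 probe: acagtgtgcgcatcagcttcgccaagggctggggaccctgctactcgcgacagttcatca

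Grem1 and Id2, which were both higher in untreated and in treated adenomas, share a motif upstream of their start sites with Bmpr1a, which was not called. RefSeq windows of the 250 bases before a gene's start (build GRCm38.p6) were at hand for 6 of the 10 genes: Bmp4, Bmpr1a, Id2, Id3, Smad6 and Grem1. Letters of BMP-responsive SMAD elements (GGCGCC and GGAGCC), the general SMAD element (CAGAC) and the E-box that E proteins bind (CANNTG) were searched on both strands; in the 6 windows no match of 1 motif shared a base with a match of another. GGCGCC stood in 3 of the 6 windows (Grem1, Id2 and Bmpr1a) and in 9.59% of all 32841 windows of that length. GGAGCC stood in 4 of the 6 (26.0% of all windows), CAGAC in 2 (42.2%) and CANNTG in 2 (66.2%). These windows are GC-rich (62.8% to 78.8% G or C), and the share among windows of like composition was not taken. A match is a description of the sequence, not a binding site. The windows of Grem1 (chr2:113758649-113758898, minus strand) and Id2 (chr12:25096093-25096342, minus strand) follow with GGCGCC in capitals, which begins 78 and 231 bases before the start.
Grem1 upstream: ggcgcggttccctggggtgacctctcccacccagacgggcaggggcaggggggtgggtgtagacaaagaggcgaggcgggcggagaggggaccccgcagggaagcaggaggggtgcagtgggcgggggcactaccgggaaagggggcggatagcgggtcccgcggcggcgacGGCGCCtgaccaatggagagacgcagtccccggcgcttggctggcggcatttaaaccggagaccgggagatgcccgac
Id2 upstream: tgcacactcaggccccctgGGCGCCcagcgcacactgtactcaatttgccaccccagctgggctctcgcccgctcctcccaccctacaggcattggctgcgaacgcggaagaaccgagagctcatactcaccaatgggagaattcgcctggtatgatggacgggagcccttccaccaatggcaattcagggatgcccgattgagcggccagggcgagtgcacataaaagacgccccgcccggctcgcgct

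The first comparison set the adenomas, as the mean of the untreated and treated groups, against the mean of both epithelium groups. Grem1 was 46.5-fold higher in adenoma, Id2 3.40-fold higher and Bmp7 3.03-fold higher, while Bmp2 was 4.83-fold lower. The Grem1 and Bmp2 folds include arrays on which the dimmer tissue was not well above background: Grem1 was above it on 6 of 8 epithelium arrays and Bmp2 on 4 of 7 adenoma arrays, so both sizes are approximate. Bmp4, Bmpr1a, Id1, Id3, Smad6 and Smad7 did not pass the threshold of an adjusted p of 0.05. In this comparison 4 of 10 genes were called, beside 21.5% of the 18913 features tested: 3 higher, beside 8.93%, and 1 lower, beside 12.6%. The median difference was 0.60 over the 10 genes and -0.17 over all features on the log2 scale. Samples of adenoma and epithelium did not overlap for 2 of the 10 (Grem1 and Id2), beside 17.2% of features.

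**Figure D1:**
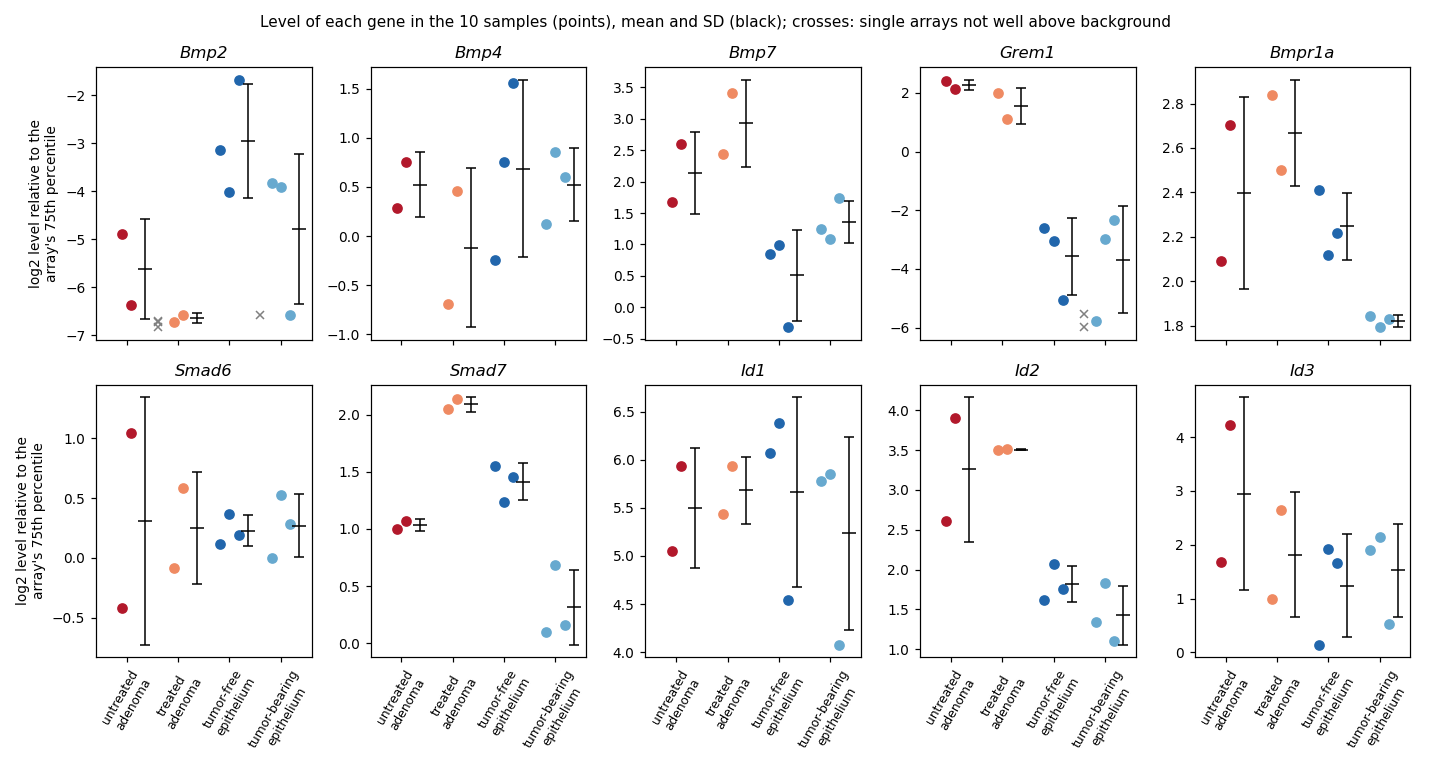
Level of each of the 10 genes in the 10 samples (points; vertical axis, log2 relative to the array's 75th percentile, scaled per gene), with the group mean and SD in black and, as grey crosses, single arrays on which the probe was not well above background. The 4 Grem1 adenoma points lie between 1.12 and 2.39 and the 6 epithelium points between -5.76 and -2.33, while the Id1 and Smad6 points of the groups overlap.

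Grem1 encodes gremlin 1, which binds BMP2, BMP4 and BMP7 and keeps them from their receptors. Its level was 2.39 and 2.14 in the untreated adenoma samples and 1.98 and 1.12 in the treated ones. In epithelium it was -2.62, -3.05 and -5.06 in the tumor-free samples and -5.76, -2.97 and -2.33 in the tumor-bearing samples. The lowest adenoma sample was thus above the highest epithelium sample, with a wide spread within each epithelium group (SD 1.30 and 1.83, n = 3). On arrays 1 and 3 of the tumor-bearing epithelium, which form its lowest sample, the probe was not well above background, so it was measured there on 2 of 4 arrays. The difference was 5.54 ± 0.71 (SE) on the log2 scale (adjusted p = 0.000481, limma). It was 5.90 ± 0.90 for the untreated adenomas (adjusted p = 0.00238), where Grem1 and Id2 were the 2 of 10 genes called beside 13.9% of features, and 5.18 ± 0.90 for the treated ones (adjusted p = 0.00409). Comparisons against epithelium share the same epithelium samples, so the latter values are not independent of each other. On the scan date where every array of adenoma and tumor-bearing epithelium was well above background, the treated array stood 3.38 above the tumor-bearing one. Differences of 7.05, 7.75 and 7.52 on the other dates include tumor-bearing array 1 or 3, which were not, so their sizes are not exact. On the date of the 7.05, tumor-bearing array 2 was well above background at -2.97, and untreated array 1 read 2.565. The call for the treated adenomas was lost without treated sample 1 (4.75, adjusted p = 0.0615), and no other sample left out ended a Grem1 call.

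Among the ligands of the 10 genes, Bmp7 was the 1 that rose; it signals as a homodimer or joined to other BMPs. Its level was 1.67 and 2.60 in untreated adenoma and 2.44 and 3.42 in treated adenoma. Tumor-free epithelium had 0.85, 0.99 and -0.32, and tumor-bearing epithelium 1.25, 1.09 and 1.74. The groups touched: the highest epithelium sample lay just above the lowest untreated adenoma sample, while both treated samples were above all epithelium. The difference of adenoma from epithelium was 1.60 ± 0.39 (adjusted p = 0.0174), that of the treated adenomas 2.00 ± 0.50 (adjusted p = 0.0247) and that of the untreated ones 1.20 ± 0.50, which was not called (adjusted p = 0.135). The second Bmp7 probe, which lies close to the first, gave 1.40 ± 0.41 for adenoma (adjusted p = 0.0424, over single probes) but 1.20 ± 0.52 for the treated adenomas (adjusted p = 0.173), so the call for the treated group rests on 1 probe. The adenoma call was lost without the pair of arrays near-identical across groups (1.65, adjusted p = 0.0511), without untreated sample 3 (1.37, adjusted p = 0.0756), without treated sample 2 (1.36, adjusted p = 0.0715) and against tumor-bearing epithelium alone (1.18, adjusted p = 0.110). For the treated adenomas it was lost without treated sample 1 (2.49, adjusted p = 0.0608) or 2 (1.51, adjusted p = 0.193), without the pair (2.05, adjusted p = 0.0595) and against tumor-bearing epithelium alone (1.57, adjusted p = 0.0937).

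Bmp2, a ligand made in the colon by mature epithelium, was the 1 gene of the 10 that fell. The level was -4.88 and -6.36 in untreated adenoma, -6.72 and -6.57 in treated adenoma, -3.15, -4.02 and -1.68 in tumor-free epithelium and -3.84, -3.91 and -6.58 in tumor-bearing epithelium. Tumor-bearing sample 4 was as low as the treated adenomas, so adenoma and epithelium overlapped. These are dim values: the probe was well above background on 3 of 3 untreated, 1 of 4 treated, 4 of 4 tumor-free and 3 of 4 tumor-bearing arrays. Bmp2 fell by 2.27 ± 0.66 on the log2 scale (adjusted p = 0.0351). The call was lost when any 1 of 8 of the 10 samples was left out, all but tumor-free sample 2 and tumor-bearing sample 4 (adjusted p up to 0.129; differences from -2.72 to -1.90 over all 10 omissions), without the near-identical pair (-2.32, adjusted p = 0.0581), and against tumor-bearing epithelium alone, where the difference was -1.36 (adjusted p = 0.249). Taken singly, the untreated adenomas (-1.76 ± 0.83, adjusted p = 0.183) and the treated adenomas (-2.78 ± 0.83, adjusted p = 0.0520) did not pass; the latter passed without tumor-free sample 2 (-3.05, adjusted p = 0.0464) and without tumor-bearing sample 4 (-3.24, adjusted p = 0.00801), as the former did without tumor-bearing sample 4 (-2.21, adjusted p = 0.0373).

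Bmp4, a ligand made mainly by the stroma in the gut, gave no call. It lay at 0.29 and 0.76 in untreated adenoma, -0.69 and 0.46 in treated adenoma, -0.25, 0.75 and 1.56 in tumor-free epithelium and 0.12, 0.86 and 0.60 in tumor-bearing epithelium. All 4 groups overlapped, and the adenoma difference was -0.40 ± 0.42 (95% interval -1.34 to 0.53, adjusted p = 0.511). Fibroblast markers, which mark stroma, summed to 118 to 165 times the 75th percentile in untreated adenoma, 139 to 202 in treated adenoma, 155 to 163 in tumor-free and 112 to 157 in tumor-bearing epithelium. Of the 10 fibroblast markers, 1 (Col6a1) fell in adenoma and none was called higher; the largest positive differences were 1.45 for Fbln1 (adjusted p = 0.0704), 1.20 for Thy1 (adjusted p = 0.0585) and 0.77 for Dcn (adjusted p = 0.0862). Of the endothelial markers 1 of 8 rose (Cdh5, by 1.35 ± 0.32, adjusted p = 0.0146), and of the immune markers 1 of 7 tested (Itgam, by 1.61 ± 0.51, adjusted p = 0.0492). The endothelial sums ran from 6.25 to 14.5 in untreated and 7.02 to 9.2 in treated adenoma and from 5.11 to 8 in tumor-free and 3.93 to 10.4 in tumor-bearing epithelium. The immune sums were 11.8 to 14.5 and 12.6 to 23.2 in untreated and treated adenoma against 7.2 to 19.6 and 12 to 23.3 in tumor-free and tumor-bearing epithelium. The part of these cells in the levels of the 10 genes was not tested. Smooth muscle is another source of Grem1 in the gut: its markers summed to 15.1 to 18 in untreated and 34.3 to 38.4 in treated adenoma against 39.3 to 86.2 in tumor-free and 68.8 to 89 in tumor-bearing epithelium. Of these 8 markers, 6 fell in the mean of both adenoma groups (Acta2, Myh11, Tagln, Cnn1, Myl9 and Lmod1). The same 6 were called in untreated adenoma, beside 13.9% of all features. In treated adenoma 2 of 7 tested were (Cnn1 and Lmod1), beside 14.1%. Beside the marker counts of adenoma against epithelium, 8.93% of all features were called higher and 12.6% lower. The part of smooth muscle cells in the Grem1 result was not tested.

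The receptor Bmpr1a, a type I receptor whose germline loss causes juvenile polyposis, was not called. Its brighter probe read 2.09 and 2.70 in untreated adenoma, 2.84 and 2.50 in treated adenoma, 2.41, 2.12 and 2.22 in tumor-free epithelium and 1.84, 1.79 and 1.83 in tumor-bearing epithelium. On this probe the tumor-bearing samples were below every other sample, although the arrays averaged in sample 1 read 1.63 and 2.06. On a second, dimmer probe the tumor-bearing samples (-5.30, -3.79 and -3.29) overlapped the other groups. The adenoma difference was 0.50 ± 0.27 (adjusted p = 0.215) on the brighter probe and 0.20 ± 0.48 on the dimmer one.

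Of the inhibitory SMADs, Smad7, which blocks type I receptors of both the BMP and the TGF-beta branch, was higher in treated adenoma. It read 2.05 and 2.14 in treated adenoma, 1.56, 1.24 and 1.45 in tumor-free epithelium, 1.00 and 1.07 in untreated adenoma and 0.09, 0.69 and 0.16 in tumor-bearing epithelium. No group overlapped its neighbour in this order, which held for no other gene of the 10. The order was read from these same values, and the share of all features separated in this way was not taken, so this does not set Smad7 apart. Treated adenoma exceeded the mean of both epithelia by 1.23 ± 0.34 (2.34-fold, adjusted p = 0.0407), 1 of the 4 genes of 10 called in that comparison with Bmp7, Grem1 and Id2, where 14.1% of features were called. This call was lost when any 1 of 8 samples was left out, all but tumor-bearing samples 2 and 4 (adjusted p 0.0583 to 0.188), while the difference stayed between 1.17 and 1.32 whichever sample was left out. It was also lost without the near-identical pair (1.28, adjusted p = 0.107), without the filter on dim probes (1.23, adjusted p = 0.0597), with every probe as its own feature (1.23, adjusted p = 0.0540) and against tumor-free epithelium alone (0.68, adjusted p = 0.332). Against the tumor-bearing epithelium alone the mean of both adenoma groups was higher by 1.25 ± 0.32 (adjusted p = 0.0264), while against both epithelia it was not called (0.70 ± 0.27, adjusted p = 0.0932). Smad6, which acts mainly on the BMP branch, did not differ beyond the spread: its group means were 0.31 ± 1.03 (SD, n = 2) in untreated adenoma, 0.25 ± 0.47 (n = 2) in treated adenoma, 0.23 ± 0.13 (n = 3) in tumor-free and 0.27 ± 0.26 (n = 3) in tumor-bearing epithelium. The adenoma difference of Smad6 was 0.03 ± 0.35 (95% interval -0.75 to 0.82).

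Of the Id genes Id2 rose, and neither Id1 nor Id3 was called; whether the Id genes differed from one another was not tested. Id2 read 2.61 and 3.90 in untreated adenoma, 3.50 and 3.51 in treated adenoma, 1.62, 2.06 and 1.76 in tumor-free epithelium and 1.34, 1.83 and 1.10 in tumor-bearing epithelium. All 4 adenoma samples were above all 6 epithelium samples. The difference was 1.76 ± 0.34 (adjusted p = 0.00490), with 1.64 ± 0.43 in the untreated (adjusted p = 0.0309) and 1.89 ± 0.43 in the treated adenomas (adjusted p = 0.0159). The probe whose sequence ends in the stop codon gave nearly the same values, 1.71 ± 0.30 for adenoma (adjusted p = 0.00378), 1.68 ± 0.38 for the untreated (adjusted p = 0.0202) and 1.75 ± 0.38 for the treated adenomas (adjusted p = 0.0159). Within scan dates, adenoma arrays exceeded tumor-bearing epithelium arrays by 1.30, 0.89, 1.93 and 2.48. The adenoma call held whichever sample was left out. The call for the untreated adenomas was lost without untreated sample 3 (1.00, adjusted p = 0.293), without tumor-free sample 1, 2 or 3 or tumor-bearing sample 1 (adjusted p 0.0501 to 0.0604), without the near-identical pair (1.80, adjusted p = 0.0637) and against tumor-free epithelium alone (1.44, adjusted p = 0.0895). That for the treated adenomas was lost without treated sample 1 (1.90, adjusted p = 0.112) or 2 (1.88, adjusted p = 0.0977), where the size stayed near that of the full fit, and against tumor-free epithelium alone (1.69, adjusted p = 0.0511).

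Id1, a direct target of BMP-activated SMADs, was not called. Its group means were 5.50 ± 0.62 (SD, n = 2) in untreated adenoma, 5.68 ± 0.35 (n = 2) in treated adenoma, 5.67 ± 0.99 (n = 3) in tumor-free and 5.23 ± 1.00 (n = 3) in tumor-bearing epithelium. The lowest samples, tumor-bearing 4 at 4.08 and tumor-free 3 at 4.54, were both epithelium, and each lay over 1 log2 unit below the others of its group. The adenoma difference was 0.14 ± 0.50 (95% interval -0.98 to 1.26, adjusted p = 0.859), and the second probe, which overlaps the first, gave 0.09 ± 0.52. Among the Id genes Id3 spread most in adenoma. It read 1.68 and 4.22 in untreated adenoma and 1.00 and 2.64 in treated adenoma. In epithelium Id3 read 0.15, 1.92 and 1.66 in the tumor-free and 1.90, 2.14 and 0.53 in the tumor-bearing samples. Untreated sample 3 was the highest of all, and the groups overlapped. The Id3 difference was 1.00 ± 0.63 (95% interval -0.40 to 2.41, adjusted p = 0.275). The 4 epithelial markers called lower in the mean of both adenoma groups (Krt19, Krt20, Vil1 and Cdx2) belong to a list of 10, beside 12.6% of all features. In untreated adenoma alone none of the 10 was called, beside 13.9% of all features, and in treated adenoma Krt20 and Cdx2 were, beside 14.1%. Cdx2 differed from epithelium by -0.09 in untreated and by -5.22 in treated adenoma. Set directly against untreated adenoma, treated adenoma differed in Cdx2 by -5.14 ± 1.17, which was not called (adjusted p = 0.139, limma). The 10 markers summed to 399 to 436 in untreated and 331 to 495 in treated adenoma and to 534 to 662 in tumor-free and 469 to 686 in tumor-bearing epithelium. Their part in the Id2 result was not tested.

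**Figure D2:**
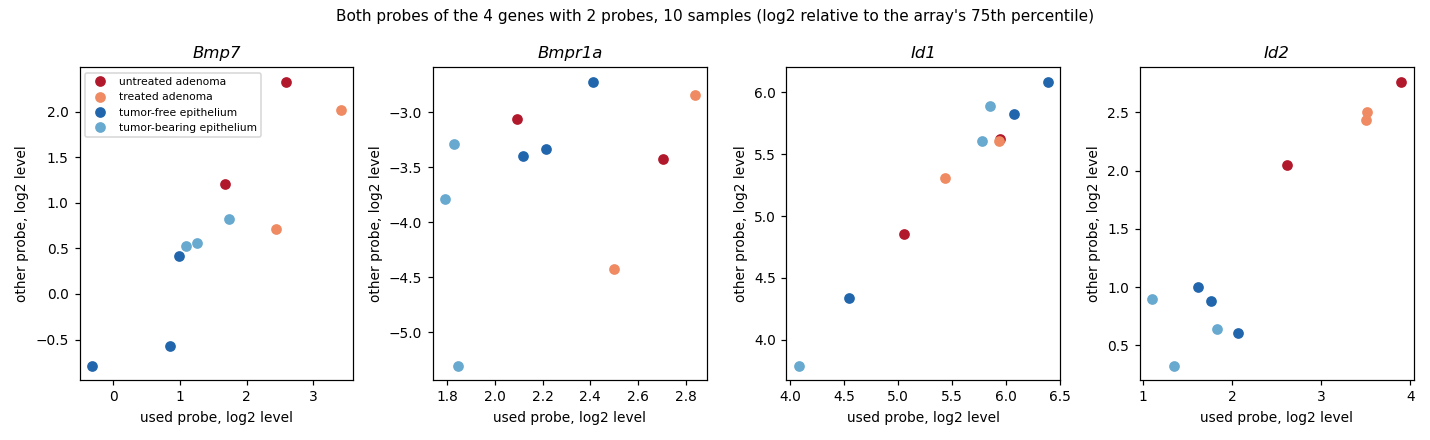
Levels read by both probes of Bmp7, Bmpr1a, Id1 and Id2 in the 10 samples (log2 relative to the array's 75th percentile; horizontal axis, the probe used in the tests; vertical axis, the other probe; colours, the 4 groups). Both Id2 probes place the 4 adenoma samples above the 6 epithelium samples, with differences of 1.76 and 1.71, while the Bmpr1a probes gave 0.50 and 0.20.

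The second comparison asked what 7 days of sulindac with atorvastatin changed in the adenomas, with both drugs given together. None of the 10 genes was called, beside 0.227% of 17629 features (40 features; 2103, 11.9%, at an unadjusted p under 0.05, among them 1 of the 10 genes). Smad7 came closest, at 1.00 and 1.07 in untreated and 2.05 and 2.14 in treated adenoma, a difference of 1.06 ± 0.42 (adjusted p = 0.366). On the scan dates that held both groups the Smad7 difference was 1.23 (1 array against 1) and 0.92 (2 arrays against 1). With each array counted as a sample of its own the difference was 1.09 ± 0.26 and passed (adjusted p = 0.0131), and with scan date as a block on the arrays it was 1.11 ± 0.30 (adjusted p = 0.0301); these fits treat near-identical arrays as separate. With scan date as a block Bmp7 also passed (0.87 ± 0.26, adjusted p = 0.0458), against 0.79 ± 0.61 (adjusted p = 0.656) in the 10 samples, and its second probe went the other way (-0.41 ± 0.63).

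The other genes differed by less than their error allows to call. Grem1 was lower by 0.72 on the log2 scale in treated adenoma (-0.72 ± 1.10, 95% interval -3.17 to 1.73) and Bmp2 by 1.02 (-1.02 ± 1.02), and for both genes the treated and untreated samples did not overlap. For Bmp2 that order and size rest on treated values of which 3 of 4 arrays were not well above background, so they say little. Samples of these small groups did not overlap for 3 of the 10 genes (Bmp2, Grem1 and Smad7), beside 45.6% of all features. Id2 differed by 0.25 ± 0.52 (95% interval -0.91 to 1.41), Id1 by 0.19 ± 0.78 and Id3 by -1.13 ± 0.97 (95% interval -3.30 to 1.04). The remaining differences were -0.64 ± 0.65 for Bmp4, 0.27 ± 0.42 for Bmpr1a and -0.06 ± 0.55 for Smad6. This fit is also the test of whether the untreated and treated adenomas differ from epithelium by different amounts, so a gene called in 1 of them and not in the other, such as Bmp7 or Smad7, was not shown to differ between them in the 10 samples.

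**Figure D3:**
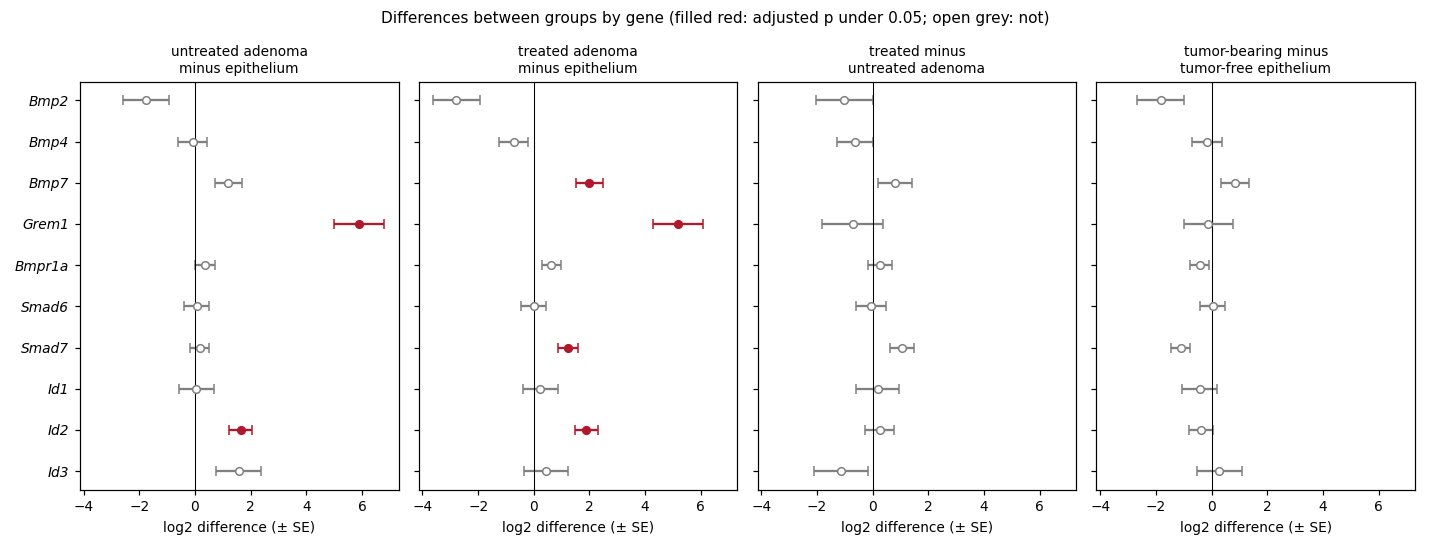
Log2 difference (horizontal axis, points, with SE as bars) of each of the 10 genes in 4 comparisons; filled red points have an adjusted p under 0.05. Grem1 stands at 5.90 in untreated and 5.18 in treated adenoma and Id2 at 1.64 and 1.89, and no point is filled between treated and untreated adenoma or between the epithelia.

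The third comparison set epithelium of tumor-bearing mice against epithelium of tumor-free mice, both labelled with atorvastatin. None of the 10 genes was called by limma, beside 0% of 17648 features (447, 2.53%, at an unadjusted p under 0.05, among them 1 of the 10). That gene was Smad7, at 0.09, 0.69 and 0.16 in tumor-bearing and 1.56, 1.24 and 1.45 in tumor-free epithelium, a log2 difference of -1.10 ± 0.34 (95% interval -1.87 to -0.33, adjusted p = 0.996). Without the near-identical pair of arrays, 1 from each group, its difference was -1.38 ± 0.49 (adjusted p = 0.665). Samples of the epithelia did not overlap for 3 of the 10 genes, Smad7, Bmpr1a (-0.43 ± 0.35) and Bmp7 (0.85 ± 0.50), beside 7.32% of features. For Bmp7 the nearest samples were tumor-free sample 2 (0.99) and tumor-bearing sample 2 (1.09), the near-identical pair with a spot noise of 0.18. The separation of Bmp7 was thus within that noise. On the second Bmpr1a probe the epithelia overlapped. Bmp2 differed by -1.83 ± 0.83 (adjusted p = 0.996), with overlapping samples. Between the epithelia Grem1 differed by -0.11 ± 0.90, Id1 by -0.43 ± 0.63, Id2 by -0.39 ± 0.43, Id3 by 0.28 ± 0.79, Bmp4 by -0.16 ± 0.53 and Smad6 by 0.04 ± 0.45.

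Other genes of the pathway were taken from 6 lists of 67 genes, of which 56 were tested in adenoma against epithelium: 10 rose, 4 fell and 42 were not called, beside the 21.5% of all features called. Their median difference was 0.49, against -0.17 over all features. The called genes include Gdf6, Fst and Sostdc1, which passed the filter through the tissue where each was high. Between treated and untreated adenoma 0 of 55 were called, beside 0.227% of all features, and between the epithelia 0 of 53, beside 0%, in the same limma fits.

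Of the secreted BMP antagonists outside the 10 genes, 2 of 11 tested rose and 1 fell, beside 8.93% and 12.6% of all features. Bmper, which binds BMPs outside the cell, was higher by 3.83 ± 0.44 (14.3-fold, adjusted p = 0.000249). Fst, follistatin, which binds activins and some BMPs, was higher by 3.53 ± 0.47 (adjusted p = 0.000629). It was well above background on 7 of 7 adenoma but 3 of 8 epithelium arrays, so no exact fold is given. It thus passed the filter in the adenomas, where it was high. Sostdc1, an antagonist that also binds a Wnt co-receptor, was not well above background on any of 7 adenoma arrays and was at least 3.14-fold lower (adjusted p = 0.00331). It was measured on 5 of 8 epithelium arrays and could pass the filter only there, where it was high. Because the filter admitted Fst and Sostdc1 through the tissue where each was high, their p-values are no support by themselves. An "at least" fold sets the bright group's mean against the dim group's mean of the higher of its own signal and the lowest well-above-background signal of each array. Counting Grem1, 3 of these listed antagonists were called higher in adenoma and 1 lower, while 8 others, Chrd and Twsg1 among them, were not called. Of all features 21.5% were called, so the count by itself does not set the antagonists apart.

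Of the BMP and GDF ligands outside the 10 genes, 1 of 8 tested rose and 2 fell, beside 8.93% and 12.6% of all features. Gdf6 was at least 3.68-fold higher in adenoma (adjusted p = 0.000130), well above background on 6 of 7 adenoma and 0 of 8 epithelium arrays. It entered this test through the treated adenomas alone, where it was high, so its p-value is no support by itself. It was not tested in untreated adenoma (above background on 2 of 3 arrays). Bmp8a fell by 3.06 on the log2 scale (SE 0.40, 8.35-fold lower, adjusted p = 0.000587) and Bmp3, a ligand that opposes other BMPs, fell by 2.03 (SE 0.53, 4.09-fold lower, adjusted p = 0.0227). None of 8 receptors and co-receptors and none of 13 SMADs and intracellular regulators was called in this comparison, beside 21.5% of all features. Bmpr2, Acvr1, Smad1, Smad4 and Smad5 were among those tested.

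**Figure D4:**
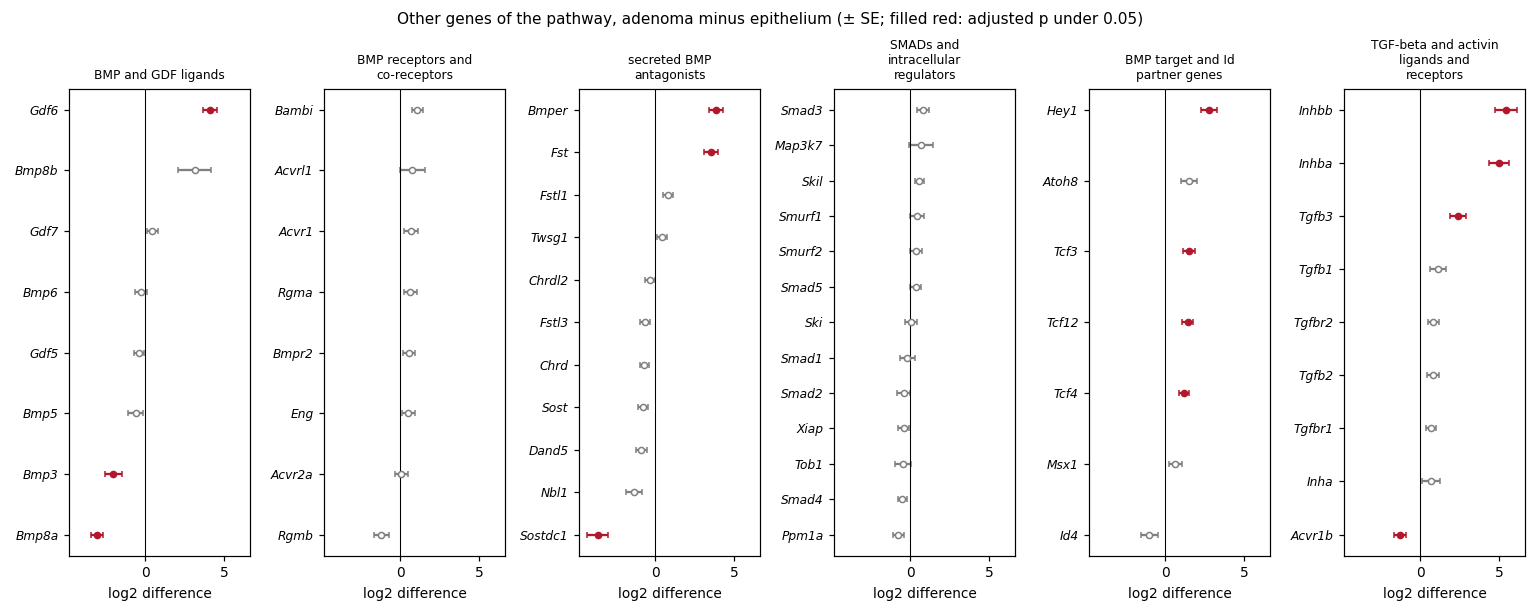
Log2 difference of adenoma from epithelium (horizontal axis, points with SE bars) for the 56 tested pathway genes outside the 10, in 6 panels by role; filled red points have an adjusted p under 0.05. Bmper and Fst lie at 3.83 and 3.53 among the antagonists, and no receptor or SMAD point is filled.

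Of the list of BMP targets and Id partners, 4 of 7 tested genes rose, beside 8.93% of all features, and none fell: Hey1, a repressor driven by Notch and BMP signals, by 2.78 ± 0.50 (adjusted p = 0.00348), and the E proteins Tcf3 by 1.49 ± 0.36 (adjusted p = 0.0174), Tcf12 by 1.41 ± 0.34 (adjusted p = 0.0168) and Tcf4 by 1.18 ± 0.32 (adjusted p = 0.0259). Tcf3 here is the E2A gene, whose scanner file name is Tcfe2a. Id4, Msx1 and Atoh8 were not called. Set singly against epithelium, the untreated adenomas had 1 of these 7 genes called (Tcf3), beside 13.9% of all features. The treated adenomas had 3 (Hey1, Tcf12 and Tcf4), beside 14.1%. None of the 7 was called between treated and untreated adenoma, beside 0.227%. In the activin and TGF-beta branch 3 of 9 tested genes rose and 1 fell, beside 8.93% and 12.6% of all features. Inhba and Inhbb, the activin subunits, were higher by 4.99 ± 0.63 (31.8-fold, adjusted p = 0.000441) and 5.42 ± 0.70 (42.8-fold, adjusted p = 0.000518), and Tgfb3 by 2.37 ± 0.52 (adjusted p = 0.0105). Acvr1b, a type I activin receptor, fell by 1.28 (SE 0.39, adjusted p = 0.0446).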

How the data were processed

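Per the labels' protocols, RNA from laser-microdissected cells went through linear amplification, Cy3 labelling and hybridisation to Agilent mouse arrays. The submitters' processing notes name Agilent Feature Extraction 9.5.3. Levels came from the processed intensity in the deposited scanner files, which is corrected for background and not scaled between arrays. The log2 values of the authors' deposited table, for which no background step is named in the labels, served only as an alternative. Its columns for tumor-bearing epithelium matched that group's scanner files in reverse order and were set beside the file they matched.

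Intensities were log2-transformed, the array's 75th percentile was subtracted, outlier spots were dropped, spots of a probe were averaged and the brightest probe of a gene was used. Near-identical arrays of a group were averaged. limma 3.58.1 in R 4.3.3 (lmFit and eBayes; residual df 6, prior df 3.9; two-sided tests) fitted all 4 groups, with Benjamini-Hochberg adjustment over all features tested and a threshold of 0.05. Features entered a test if at least 1 of its groups had them well above background on all unflagged arrays (at least 2). The fit was tested on simulated data. The 10 genes and all lists were chosen with earlier results of these data known, and no list supports a result by itself. 1 gene was taken off the lists and is not reported here. The text names the 10 genes, the called genes of each list (at most 4), the called markers, and a few uncalled list genes and markers chosen after their values were seen. Labels number the replicates alike in all groups, but 7 of 21 same-number pairs of arrays deviated together with r over 0.1 (median 0.042), so the numbers were not taken as pairs. Alternatives covered background correction, normalization, the filter, the probe rule, array pairs, blocks, weights and leaving out each sample.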

Additional observations from a re-analysis of the deposited data

How the results depend on the processing

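Of 25 alternatives, 21 were listed in advance and 4 were added after seeing the data (epithelium of 1 kind only, scan date with tumor-bearing epithelium, single probes); no called difference changed sign. Leaving out each sample in turn gave 2 to 4 of the 10 genes in adenoma against epithelium (2592 to 5988 features, 4062 with all samples), 1 to 3 for untreated adenoma (732 to 4265, from 2596), 0 to 5 for treated adenoma (1067 to 3881, from 2605), 0 between treated and untreated adenoma (1 to 71, from 40) and 0 between the epithelia (0 features). The lowest feature counts came without untreated sample 3 (2592 and 732) and without treated sample 1 (1067 and 1), the highest without tumor-bearing sample 4. With each array as its own sample, features called were 8651, 6990, 7502, 2327 and 2 in these 5 comparisons. With the replicate number as a block on the arrays they were 8923, 7344, 7512 and 2414 in the first 4. With slide as a random block (correlation 0.28) they were 8554, 7310, 6864 and 2203. Each of these 3 fits has more residual degrees of freedom because near-identical arrays count separately, and each called 4 of the 10 genes in untreated adenoma (Bmp2, Bmp7, Grem1, Id2) and 1, Smad7, between treated and untreated adenoma. With scan date as a block on the arrays 2 of the 10 (Bmp7, Smad7) and 2847 features were called there; for comparisons with tumor-free epithelium this block could not be fitted. Scan date with tumor-bearing epithelium alone gave 6162, 6060 and 4837 features for adenoma, untreated and treated adenoma. Without the pair near-identical across groups, the counts were 2 (Grem1, Id2), 1 (Grem1) and 2 (Grem1, Id2) of the 10, with 2449 and 1629 features in the first 2 comparisons and 4 between treated and untreated adenoma. Array weights gave 6130 and 4491 features in the first 2. Against tumor-free epithelium only, 2592 features were called for adenoma and 1 of the 10 (Grem1) for untreated adenoma. No filter gave 26 features between treated and untreated adenoma. The cause of these shifts was otherwise not tested. The median of all features in adenoma moved from -0.17 to -0.03 under the authors' deposited table, and the split for untreated adenoma from 1011 higher and 1585 lower to 1443 and 1396. Smad7 passed in adenoma under quantile normalization (0.78, adjusted p = 0.0416) and in that table (0.83, adjusted p = 0.0230). Signal over background limits Bmp2 in treated adenoma and Grem1 in tumor-bearing epithelium.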
